A study of Mus musculus with 20 samples.

Results

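H3K4me3 was compared gene by gene between embryoid bodies (EB) made from Chaf1a knockout (KO) cells and EB made from wild type (WT) cells. Every gene of the deposited H3K4me3 table was taken, 20462 genes of 20462, in the KO EB library and the WT EB library. Both are from TL1, a mouse embryonic stem (ES) cell line. In the KO cells p150, the large subunit of chromatin assembly factor 1 (CAF-1), had been depleted with CRISPR/Cas9, and the other cells are labelled wild type. EB are aggregates of ES cells that differentiate once the cytokine LIF is withdrawn from a serum medium, while the ES cells of both genotypes were kept in LIF. The series holds 20 libraries, and the KO ES and WT ES libraries of H3K4me3, the H3K27me3 libraries and the 8 RNA libraries (2 per genotype and stage) are used here beside the KO EB and WT EB pair. The labels do not spell out the day of differentiation (a 7 stands before EB in the titles of these libraries, with no unit), nor whether the KO is 1 clone. There was 1 H3K4me3 library per genotype and stage, so the H3K4me3 differences have no replicate check and no p-value.

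H3K4me3 is a histone mark laid down by the SET1 and MLL methyltransferase complexes at the starts of active and poised genes. In ES cells most promoters rich in CpG carry it, and developmental genes often carry it together with H3K27me3, the mark of Polycomb repression, a state called bivalent. CAF-1 deposits newly made histones H3 and H4 behind the replication fork, so that new nucleosomes start without most of the marks of the old ones.

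In every H3K4me3 library 100% of the deposited values lay within 0.02 of a whole number of steps, each step being 0.027, apart from a floor of 0.004 for genes with no step. They summed to 9733164 steps in KO EB, 10514572 in WT EB, 9480658 in KO ES and 9491716 in WT ES. Values grew with the length of the gene's locus (Spearman's rho across genes from 0.43 in KO EB to 0.48 in WT ES), so they are compared only for the same gene between libraries. The 15847 genes (77.4%) with a mean of at least 1 over the 4 libraries were kept. A gene that is high in 1 library could pass through that library alone. Ratios are log2 of KO over WT after 0.1 was added to both values. Over the genes kept the EB ratio had a median of -0.13, which was subtracted, and the ES ratio had one of 0.03, which was left. Where a 95% interval is given beside a ratio, it covers counting error only and holds if a step stands for 1 read.

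H3K4me3 differed far more between KO and WT in EB than in ES. In EB 1709 genes (10.8%) had at least 2-fold more H3K4me3 in KO and 317 (2.00%) at least 2-fold less. In ES 50 genes (0.316%) were past 2-fold higher in KO and 22 (0.139%) past 2-fold lower, among the same 15847 genes. Higher genes thus made up 84.4% of the genes past 2-fold in EB. That share depended on scaling. It was 73.0% without the subtraction of the median (1419 higher, 524 lower), 73.6% with ratios centred on ribosomal protein and housekeeping genes (1426 and 511), 72.1% after a background per kilobase was taken off (1865 and 720) and 64.0% after quantile normalization (941 and 529). At the threshold, the last gene counted as higher had a log2 ratio of 1.00006 and the next gene below it 0.99992, while on the lower side the values were -1.005 and -0.9993.

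**Figure D1:**
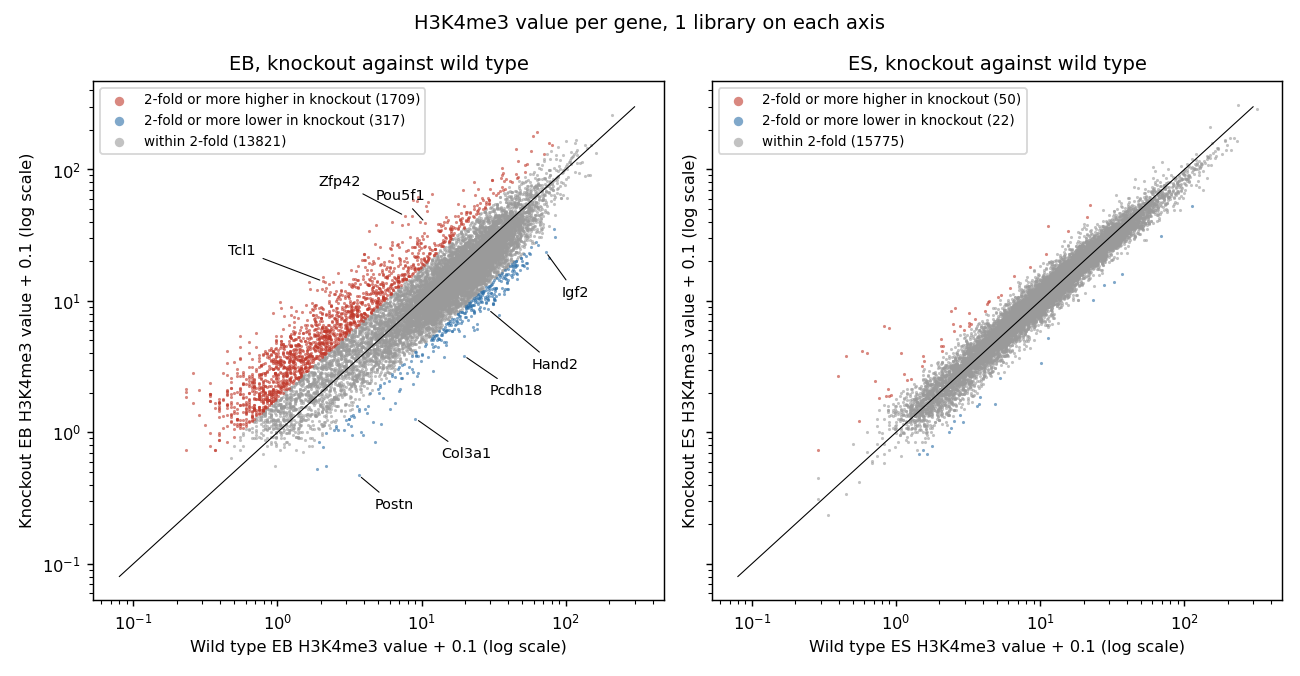
H3K4me3 value of each of 15847 genes in the KO library (vertical axis) against the WT library (horizontal axis), both plus 0.1 on log scales, for EB on the left and ES on the right. Red genes were at least 2-fold higher in KO and blue genes at least 2-fold lower, with the EB ratio centred; the line marks equal values. The EB cloud is wide, with 1709 red and 317 blue genes, and the ES cloud is narrow, with 50 and 22.

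The genes higher in KO EB and the genes lower in KO EB stood at different levels. The 1709 higher genes had a median value of 5.28 in KO EB, against 1.87 in WT EB, and of 5.47 in KO ES, against 5.23 in WT ES. For these genes the WT EB library was thus the one that stood apart, below the other 3 libraries. The 317 lower genes had a median of 8.35 in KO EB, against 21.5 in WT EB, and of 5.07 in KO ES, against 4.96 in WT ES. Here WT EB was the highest library and KO EB lay between it and both ES libraries. These class medians describe the genes that the ratio picked out.

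The CpG content of the promoter, which the ratio did not use, differed between these genes. RefSeq gives 1 promoter (GRCm38.p6, 250 bases before to 50 after the start) for 9580 of the kept genes (60.5%). CG, which reads the same on both strands, was counted in these 300 bases. It was present at least once in 99.5% of them, 0 to 5 times in 11.9%, 6 to 15 times in 24.7%, 16 to 30 times in 44.9% and over 30 times in 18.5%. The following sequences are the 120 bases before the start of 6 genes, shown as examples of promoters of genes with large ratios in each direction. They do not stand for the bins above, since none of the higher genes shown has 5 CG or fewer. They are RefSeq promoter sequence (GRCm38.p6), 5′ to 3′ on the gene's own strand, with each CG in capitals.
Zfp42: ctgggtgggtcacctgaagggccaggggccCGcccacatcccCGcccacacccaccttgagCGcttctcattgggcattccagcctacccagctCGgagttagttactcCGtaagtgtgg
Tcl1: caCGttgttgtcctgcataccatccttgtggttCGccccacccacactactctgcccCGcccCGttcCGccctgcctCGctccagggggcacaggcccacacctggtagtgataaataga
Liph: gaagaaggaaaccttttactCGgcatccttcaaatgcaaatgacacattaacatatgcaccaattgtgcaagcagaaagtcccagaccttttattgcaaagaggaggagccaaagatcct
Pcdh18: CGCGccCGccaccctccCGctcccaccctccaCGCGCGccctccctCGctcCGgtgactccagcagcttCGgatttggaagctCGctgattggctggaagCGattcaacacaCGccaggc
Hand2: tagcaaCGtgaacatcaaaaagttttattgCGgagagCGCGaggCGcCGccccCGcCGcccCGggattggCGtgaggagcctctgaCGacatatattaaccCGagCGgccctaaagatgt
Col3a1: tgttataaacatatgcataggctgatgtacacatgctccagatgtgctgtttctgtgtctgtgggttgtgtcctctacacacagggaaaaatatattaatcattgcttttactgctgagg
Zfp42 lies at chr8:43307010-43307129 (minus strand) and holds 11 CG in its 300 bases, Tcl1 at chr12:105222738-105222857 (minus strand) with 11, and Liph at chr16:21995543-21995662 (minus strand) with 7. These were higher in KO EB. Pcdh18 lies at chr3:49757317-49757436 (minus strand) with 23 CG, Hand2 at chr8:57320863-57320982 (plus strand) with 17, and Col3a1 at chr1:45311418-45311537 (plus strand) with 0. These were lower in KO EB, and Col3a1 shows that a promoter with no CG could be on that side too.

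Of the 1136 genes with 0 to 5 CG, 437 (38.5%) were past 2-fold higher in KO EB and 18 (1.58%) past 2-fold lower, with a median log2 ratio of 0.69. The share of higher genes was 16.4% with 6 to 15 CG, 3.18% with 16 to 30 and 1.63% with over 30, where the median ratio was -0.15. The medians of the values as deposited, which are not centred, show where each library stood. Genes with 0 to 5 CG had a median of 3.87 in KO EB, against 2.16 in WT EB, and of 4.22 in KO ES, against 3.95 in WT ES. Genes with over 30 CG had a median of 18.5 in KO EB, against 23.5 in WT EB, and of 17.9 in KO ES, against 17.2 in WT ES. WT EB was the lowest library at the CpG-poor promoters and the highest at the CpG-rich ones, while KO EB lay near the ES libraries at both. Over all genes kept WT EB was the highest as well, with a median of 15.5, against 13.6 in KO EB, 12.8 in KO ES and 12.3 in WT ES. Its rank at the CpG-rich promoters is thus not particular to them. Across the 9580 genes the EB ratio and the number of CG had a Pearson's r of -0.36 and a Spearman's rho of -0.33, and the ES ratio and the number of CG had -0.005 and 0.02. The genes share their 4 libraries and are not independent replicates.

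CpG-poor genes also have low H3K4me3, so the shares were taken at matched ES levels. Among genes with a mean ES value of 2 to 5, 42.7% of the 415 with 0 to 5 CG were higher in KO EB, against 12.2% of the 393 with over 15 CG. Among genes with a mean ES value of 5 to 10, 45.2% of the 252 with 0 to 5 CG were higher in KO EB, against 2.81% of the 1102 with over 15 CG. With a mean ES value of 10 to 20 the shares were 31.8% of 157 and 1.13% of 2664. With a mean ES value of 20 to 40 the shares were 26.3% of 57 and 1.71% of 1521. Without a filter on low values the share of higher genes with 0 to 5 CG was 13.0%, and after quantile normalization 19.19%, both still above the share with over 30 CG under the same setting (1.01% and 1.3%). Background moved with this result. The 1857 genes listed at 0 FPKM in all 8 RNA libraries summed to an H3K4me3 value of 434.7 in KO EB, 356.0 in WT EB, 554.3 in KO ES and 534.8 in WT ES. The filter kept 93 of them, and 28 of these were past 2-fold higher in KO EB, with a median ratio of 0.55. Over all genes kept 10.8% were higher. Olfactory receptor genes, which neither ES cells nor EB use, summed over 1115 genes to 49.6 in KO EB, 38.3 in WT EB, 59.8 in KO ES and 58.6 in WT ES. With the value per kilobase of the genes at 0 FPKM taken off each library, 44.3% of the genes with 0 to 5 CG were past 2-fold higher and 2.08% of those with over 30. Values below 0 after this step were set to 0, and taking off background enlarges ratios between low values. The part of this lower background in the CpG result was not tested, and with 1 library a side the WT EB library and the wild type state of the EB cannot be told apart.

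**Figure D2:**
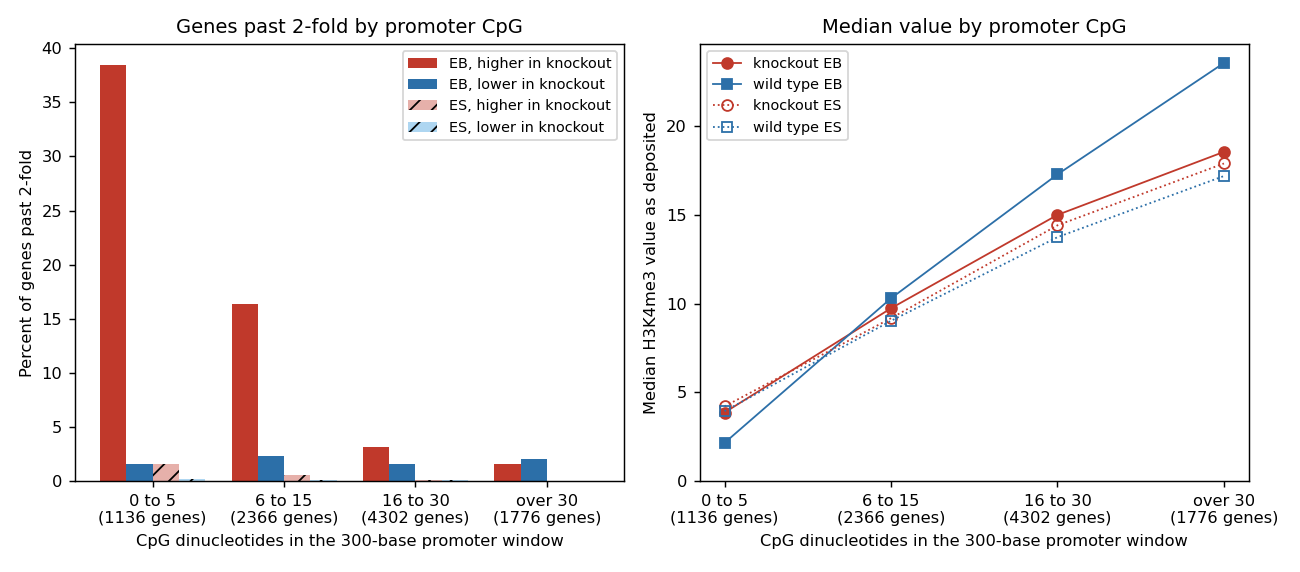
Left, the percent of genes at least 2-fold higher (red) or lower (blue) in KO than in WT, for EB (filled) and ES (hatched), by the number of CpG in the 300-base promoter window. Right, the median H3K4me3 value as deposited, not centred, in the 4 libraries for the same bins; the WT EB line crosses the other 3, lowest at 0 to 5 CpG (2.16) and highest in the other bins, up to 23.5 at over 30. WT EB also had the highest median over all genes kept.

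By the median of their list, genes tied to the pluripotent state of ES cells stood near their ES level of H3K4me3 in KO EB and far under it in WT EB, though not every member did. Of 40 pluripotency factors, all kept by the filter, 26 were past 2-fold higher in KO EB and 0 lower, with a median log2 ratio of 1.3, against 10.8% higher and a median of 0 over all genes. In ES 0 of the 40 were higher in KO and 1 lower. Their values summed to 1386 in KO EB, against 751 in WT EB, and their median was 28.9 in KO EB, 12.9 in WT EB, 33.7 in KO ES and 33.9 in WT ES. In bulk cells, fewer cells that carry a mark and less mark per cell cannot be told apart.

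Pou5f1, the central pluripotency transcription factor (ENSMUSG00000024406.16, mm10 chromosome 17, 35506018 to 35510772), had an H3K4me3 value of 39.3 in KO EB and 10.5 in WT EB, and of 40.3 in KO ES and 40.2 in WT ES. Its log2 ratio in EB was 2.03 (95% interval 1.88 to 2.2). Nanog, its partner factor, stood at 28.1 in KO EB and 7.23 in WT EB, and at 29.9 in KO ES and 33.6 in WT ES (ratio 2.08). KO EB was close to ES at both genes and WT EB alone was low. Zfp42, known as Rex1 and a marker of naive ES cells, stood at 44.3 in KO EB and 7.55 in WT EB, and at 66.6 in KO ES and 69.3 in WT ES (ratio 2.67). Tcl1, a coactivator of the kinase AKT, stood at 14.0 in KO EB and 1.97 in WT EB, and at 10.8 in KO ES and 12 in WT ES (ratio 2.90). Dppa5a, an RNA-binding protein of ES cells, stood at 8.35 in KO EB and 1.25 in WT EB (ratio 2.78). For Zfp42 the KO EB value lay between WT EB and ES, and for Tcl1 it lay above both ES libraries.

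The largest ratio of the list was 2.99, for Spp1, the secreted glycoprotein osteopontin, with 8.91 in KO EB and 1.15 in WT EB. It was not held at the ES level, which was 25.3 in KO ES and 22.7 in WT ES. Dnmt3l, the catalytically inactive cofactor of the de novo DNA methyltransferases, followed with 39.4 in KO EB and 6.14 in WT EB (ratio 2.80). Other members differed little. Sox2, which pairs with Pou5f1 on DNA and also serves neural progenitors, had 24.9 in KO EB and 21.5 in WT EB, a ratio of 0.34 (0.21 to 0.48). Klf4, a Krüppel-like factor with roles outside ES cells, had 28.3 in KO EB and 32.4 in WT EB, a ratio of -0.06. Both were nevertheless called higher in RNA. Sox2 RNA was 227 and 178 FPKM in KO EB, against 41.3 and 62.5 FPKM in WT EB (log2 difference 1.96 ± 0.20, SE; limma adjusted p = 0.000766), and Klf4 RNA was 17.9 and 10.9 FPKM in KO EB, against 5.74 and 9.06 in WT EB (0.86 ± 0.27, adjusted p = 0.0369). In RNA, 39 of these 40 were called higher in KO EB and 0 lower (20.0% and 25.9% of all genes tested). The RNA calls thus reached genes whose H3K4me3 stayed within 2-fold.

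The BMP, Nodal and TGF-beta list held genes on both sides, 5 of 31 past 2-fold higher in KO EB and 6 lower. Over all genes 10.8% were higher and 2.00% lower, so the count of higher genes is not far from the share over all genes, while the count of lower genes is above it. Tdgf1, the Nodal coreceptor Cripto, had 28 in KO EB and 6.16 in WT EB, with 37.9 in KO ES and 36.5 in WT ES (ratio 2.30). Gdf3, a ligand of the same receptors, had 20.5 in KO EB and 3.74 in WT EB (ratio 2.56), Lefty2, a feedback inhibitor of Nodal, had 19.13 and 4.46 (ratio 2.21), and Nodal itself had 33.7 and 15.8 (ratio 1.22). Lefty1, also an inhibitor of Nodal (15.0 in KO EB and 6.80 in WT EB, ratio 1.26), was the remaining one past 2-fold higher. The 6 past 2-fold lower were Bmp5, Tgfb2, Msx1 (-1.32), Bmp2 (-1.12), Tgfbr2 (-1.09) and Id2 (-1.01). Bmp5, a BMP ligand, had 2.85 in KO EB and 11.8 in WT EB (ratio -1.88), and Tgfb2, a TGF-beta ligand, had 14.6 in KO EB and 45.7 in WT EB (ratio -1.5). Over the 31 kept genes of the list the median was -0.49. Fgf4, the FGF that ES cells secrete, had 28.4 in KO EB and 9.23 in WT EB (ratio 1.74), while Fgf10, a ligand of limb and lung mesenchyme, had 7.58 and 21.9 (ratio -1.38). Factors of the formative and primed epiblast were divided. Of 19 kept, 4 were past 2-fold higher, among them Grhl2 (83.5 in KO EB and 30.9 in WT EB, ratio 1.56) and Etv5 (116 and 46.6, ratio 1.45), and 1 lower, Sox3 (5.44 and 12.7, ratio -1.08). These small counts are also to be read beside 10.8% higher and 2.00% lower over all genes.

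Germline and meiosis genes had low H3K4me3 everywhere but were on the higher side in KO EB. Of 26 kept genes, 16 were past 2-fold higher and 0 lower (10.8% and 2.00% over all genes), with a median ratio of 1.32. Their median value was 3.21 in KO EB, 1.15 in WT EB, 3.66 in KO ES and 2.84 in WT ES. At such levels higher genes are more frequent, with 26.9% higher and 5.10% lower among all kept genes with a mean ES value of 2 to 5. Sycp3, a component of the synaptonemal complex that holds paired chromosomes in meiosis, had 4.56 in KO EB and 0.987 in WT EB, and 3.17 in KO ES and 3.04 in WT ES (ratio 2.23, interval 1.82 to 2.90). Its RNA was 6.75 and 5.63 FPKM in KO EB, against 0.551 and 0.243 FPKM in WT EB (log2 difference 2.37 ± 0.19, adjusted p = 0.000372). Xlr3b and Xlr3a, X-linked members of the lymphocyte-regulated family related to Sycp3, had the largest ratios of any named gene, 3.59 and 3.42. Xlr3b had 2.75 in KO EB and 0.160 in WT EB. It was also higher in KO at the ES stage, with 3.74 in KO ES and 0.347 in WT ES (ratio 3.10), so this difference was not particular to EB. The Xlr copies are near-identical, and reads cannot be assigned with certainty among them. Of the list, 18 of 25 tested genes were called higher in RNA and 0 lower (20.0% and 25.9% of all genes tested). The median of this list was 0.64 after quantile normalization.

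Other large ratios were outside these lists. Liph, a membrane lipase, had 33.7 in KO EB and 4.22 in WT EB, and 33.9 in KO ES and 15.4 in WT ES (ratio 3.10). Its RNA was 17.1 and 14.9 FPKM in KO EB, against 0.329 and 0.885 FPKM in WT EB (3.42 ± 0.23, adjusted p = 0.000253). Fam25c (ratio 3.38), Ptchd3 (3.35), Ggt6 (3.34), Pou6f1 (3.26), Xlr5b (3.25), Oas2 (3.21), Fam166b (3.15), Slc39a3 (3.13) and Yy2 (3.07) made up the rest of the 12 largest among named genes with a locus. Several of the 12 were past 2-fold higher in KO at the ES stage too, against 0.316% of all genes. Beside Xlr3b, the ES ratio was 2.85 for Xlr5b, 2.80 for Xlr3a, 1.42 for Pou6f1, 1.13 for Liph and 1.05 for Fam25c. The rest of the 12 were within 2-fold in ES. Not all of the 12 had RNA to match. Ptchd3, Ggt6 and Fam166b were under the filter of 1 FPKM in at least 2 libraries. Pou6f1, a POU domain factor, had an H3K4me3 value of 8 in KO EB and 0.827 in WT EB, but 3.09 and 2.67 FPKM in KO EB, against 4.38 and 5.92 FPKM in WT EB (log2 difference -0.65 ± 0.29, adjusted p = 0.104).

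Mesenchymal genes had the largest deficits in KO EB. Postn, the matrix protein periostin (ENSMUSG00000027750.16, chromosome 3, 54361109 to 54391037), had an H3K4me3 value of 0.374 in KO EB and 3.55 in WT EB, and of 0.320 in KO ES and 0.454 in WT ES. Its ratio of -2.81 (-4.02 to -2.32) was the lowest of any named gene. Col3a1, a fibrillar collagen, had 1.17 in KO EB and 8.96 in WT EB, and 0.614 in KO ES and 0.534 in WT ES (ratio -2.70). Acta2, smooth muscle actin, had 0.747 in KO EB and 4.62 in WT EB, and 0.667 in KO ES and 0.880 in WT ES (ratio -2.34). Postn and Acta2 were at ES-like levels in KO EB and Col3a1 was above its ES level, and all 3 were highest in WT EB. All 3 passed the filter of a mean of at least 1 only through their WT EB value. Being kept and being lower in KO EB are thus not independent for these genes. Their RNA moved the same way, with 4.30 and 31.0 FPKM of Col3a1 in KO EB, against 349 and 492 FPKM in WT EB (log2 difference -5.0 ± 0.71, adjusted p = 0.00204).

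Of 19 kept stromal and mesenchymal markers, 8 were past 2-fold lower in KO EB and 0 higher, against 2.00% lower over all genes, and the median was -0.95. Postn, Col3a1 and Acta2 are among these 8. The values of the list summed to 164.5 in KO EB and 312.7 in WT EB. Among the others that were lower were Prrx1, a transcription factor of limb and facial mesenchyme (9.34 in KO EB and 31.2 in WT EB, ratio -1.59), Pdgfrb, a receptor of pericytes (8.32 and 25.3, ratio -1.46), and Vim, the intermediate filament vimentin (11.2 and 31.6, ratio -1.36). The fibrillar collagens Col1a1 (7.39 and 10.0, ratio -0.30) and Col1a2 (2.56 and 3.44, ratio -0.28) were within 2-fold. In RNA 21 of 23 tested members were called lower and 1 higher (25.9% and 20.0% of all genes tested). The remaining genes among the 12 largest deficits were Pcdh18, a protocadherin (3.74 in KO EB and 19.5 in WT EB, ratio -2.22), Ccdc80 (-2.04), Adamts1, a matrix protease (7.66 and 34.4, ratio -2.02), Bmp5, Nudt12 (-1.86), Col9a1 (-1.83), Plek (-1.83), Maf (-1.81) and Abcd2 (-1.81). Ccdc80 and Plek likewise passed the filter only through WT EB. All 12 were called lower in RNA, against 25.9% of all genes tested.

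Transcription factors of the germ layers were lower in KO EB, by less than the pluripotency genes were higher. The medians were -0.69 for 17 cardiac factors (1 past 2-fold higher, 6 lower), -0.61 for 30 primitive streak and mesoderm factors (2 higher, 9 lower), -0.64 for 33 neural progenitor factors (1 higher, 9 lower) and -0.53 for 16 endoderm factors (0 higher, 3 lower). Over all genes 10.8% were past 2-fold higher and 2.00% lower. The summed values were 230.3 in KO EB and 384.3 in WT EB for the cardiac factors, 341.4 and 634.7 for the mesoderm factors, 369.1 and 629.0 for the neural factors and 218.5 and 339.2 for the endoderm factors. The part of the cell makeup of the EB in these differences was not tested. Hand2, a bHLH factor of the heart and limb (ENSMUSG00000038193.4, chromosome 8, 57320983 to 57324633), had 8.56 in KO EB and 28.7 in WT EB, and 2.93 in KO ES and 3.17 in WT ES (ratio -1.6, interval -1.80 to -1.43). KO EB lay above ES and below WT EB. Gata6, a zinc finger factor of endoderm and heart, had 18.6 in KO EB and 50.4 in WT EB, and 5.44 in KO ES and 4.35 in WT ES (ratio -1.3). Foxc1, a forkhead factor of paraxial mesoderm, had 11.2 in KO EB and 36.9 in WT EB (ratio -1.58), and Snai2, which represses epithelial genes in migrating cells, had 3.63 and 14.1 (ratio -1.80). Snai2 in KO EB was at its ES level, which was 2.77 in KO ES and 3.44 in WT ES. Irx3, a neural and cardiac patterning factor, had 11.8 in KO EB and 37.4 in WT EB (ratio -1.52), and Sox9, a factor of many progenitors, had 12.5 and 36.3 (ratio -1.39).

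Not all lineage factors followed. Eomes, a T-box factor that acts early in the primitive streak, had 23.9 in KO EB and 22.2 in WT EB (ratio 0.24), and Mixl1, a homeobox factor of the same stage, had 6.94 and 8.08 (ratio -0.08). Eomes RNA was higher in KO EB, with 11.1 and 19.21 FPKM, against 2.80 and 6.24 FPKM in WT EB (1.58 ± 0.45, adjusted p = 0.0254). Tbx5, a T-box factor of the heart, had 8.62 in KO EB and 8.80 in WT EB, a ratio of 0.10, while its RNA was 0.0146 and 0.282 FPKM in KO EB, against 9.91 and 9.02 FPKM in WT EB (-3.20 ± 0.18, adjusted p = 0.000166). Nkx2-5, the cardiac homeobox factor, had 9.90 in KO EB and 14.5 in WT EB (ratio -0.42), and its RNA differed by -4.48 ± 0.42 (adjusted p = 0.000549). Past 2-fold higher against the trend of their lists were Smyd1, a muscle methyltransferase (9.34 in KO EB and 4.88 in WT EB, ratio 1.06), the homeobox genes Cdx1 (6.40 and 3.07, ratio 1.17) and Cdx4 (2.37 and 0.694, ratio 1.77), and Otx2, a factor of the epiblast and forebrain (17.6 and 9.60, ratio 1.00). With only loci of 10 kb or more the median was 0.10 for the 8 endoderm factors left and -0.09 for the mesoderm list. With only loci under 10 kb it was 0.09 for the 3 stromal markers left.

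Hox genes, which pattern the body axis and sit in 4 clusters, were lower as a group. All 39 were kept, 8 were past 2-fold lower in KO EB and 0 higher (2.00% and 10.8% over all genes), and the median ratio was -0.70. Their median value was 4.30 in KO EB, 7.92 in WT EB, 1.92 in KO ES and 2.21 in WT ES. Hoxd8 had 3.36 in KO EB and 9.74 in WT EB (ratio -1.37), Hoxb2 had 4.43 and 12.3 (ratio -1.32), and Hoxa5 had 6.99 and 17.4 (ratio -1.17). Some at the ends of the clusters were not lower, such as Hoxb13 with 3.09 in KO EB and 1.95 in WT EB (ratio 0.78) and Hoxd12 with 1.47 and 1.01 (ratio 0.63). Of the 21 tested in RNA, 20 were called lower and 0 higher (25.9% and 20.0% of all genes tested).

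Imprinted genes had a median of -0.54 over 26 kept, with 6 past 2-fold lower and 1 higher (2.00% and 10.8% over all genes). Igf2, the fetal growth factor expressed from the paternal copy (ENSMUSG00000048583.16, chromosome 7, 142650766 to 142666816), had 23.5 in KO EB and 72.3 in WT EB, and 8.11 in KO ES and 5.15 in WT ES (ratio -1.48). Cdkn1c, a maternally expressed inhibitor of cell cycle kinases, had 8.96 in KO EB and 20.9 in WT EB, and 7.79 in KO ES and 5.23 in WT ES (ratio -1.08). The others past 2-fold lower were Zim1 (-1.46), Mest (-1.23), Dlk1 (-1.19) and Nnat (-1.17). Slc22a18 was the one higher, with 7.28 in KO EB and 3.92 in WT EB (ratio 1.01). In RNA 20 of 30 tested imprinted genes were called lower and 2 higher (25.9% and 20.0% of all genes tested).

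**Figure D3:**
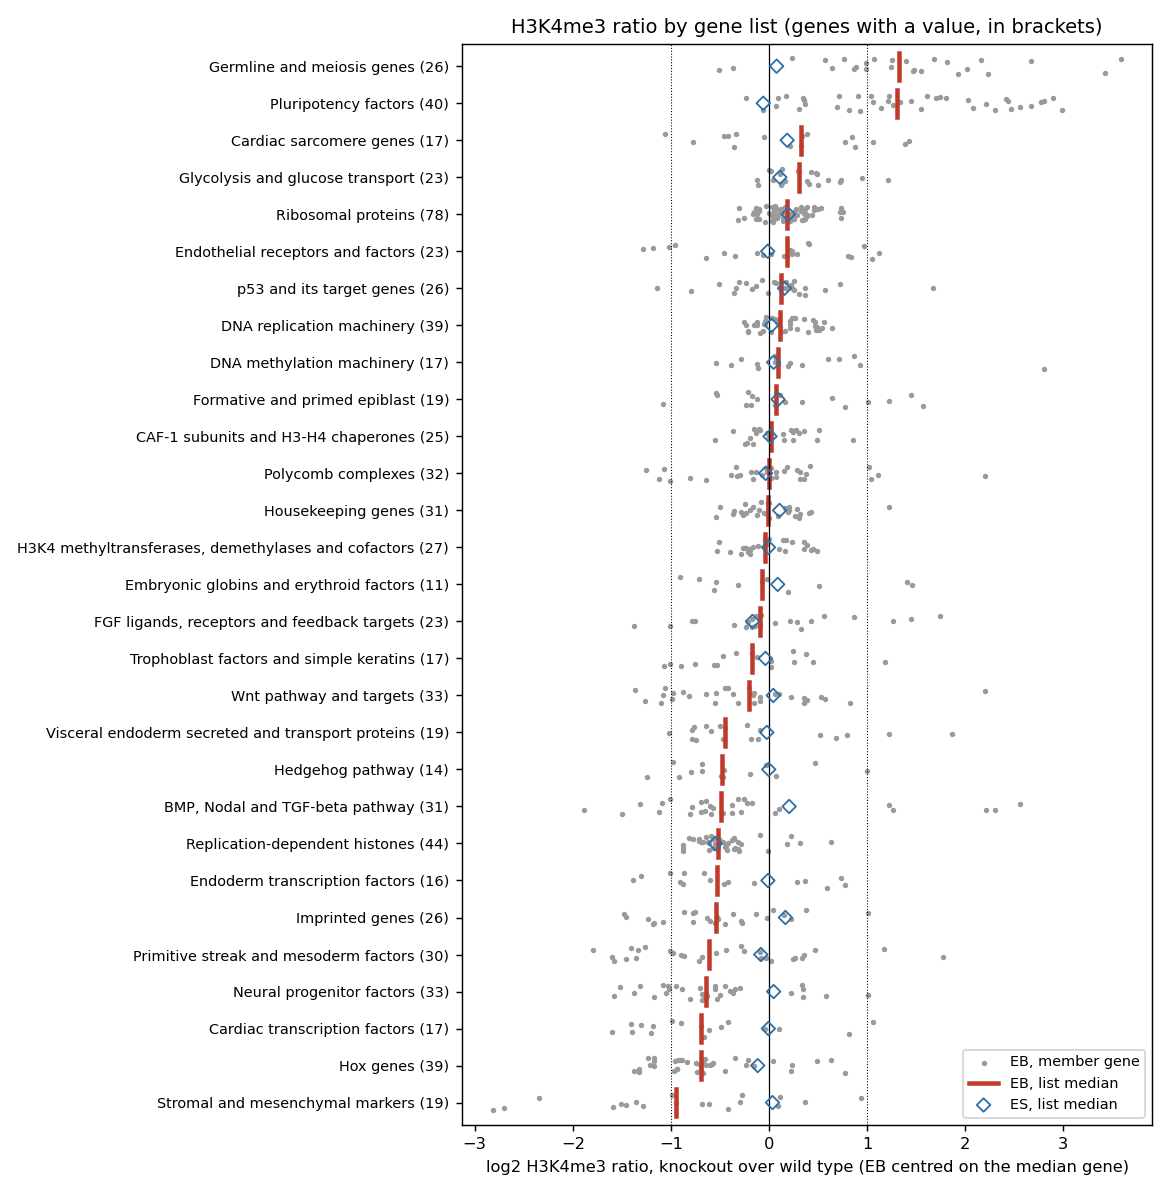
Log2 H3K4me3 ratio of KO over WT for 29 gene lists, with the number of kept genes in brackets. Grey points are the EB ratios of member genes (centred), red bars the EB list medians and blue diamonds the ES list medians; dotted lines mark 2-fold. The germline (1.32) and pluripotency (1.3) lists lie highest in EB and the stromal list (-0.95) lowest, while the ES medians lie between -0.17 and 0.20 except for replication-dependent histones (-0.55).

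Genes that all dividing cells use differed little in H3K4me3. Of 78 kept ribosomal protein genes, 39 DNA replication genes, 25 genes of CAF-1 and the H3-H4 chaperones and 27 genes of the H3K4 methylation machinery, 0 were past 2-fold in either direction in EB. Their medians were 0.19, 0.11, 0.02 and -0.04. Chaf1a itself (ENSMUSG00000002835.8, chromosome 17, 56040416 to 56068026) had an H3K4me3 value of 21.7 in KO EB and 20.0 in WT EB, and of 22.3 in KO ES and 24.4 in WT ES. Its RNA was 31.6 and 35 FPKM in KO EB, against 31.7 and 32.1 FPKM in WT EB (log2 difference 0.06 ± 0.14, adjusted p = 0.757). Values per gene check nothing about a small CRISPR lesion, so the genotype rests on the labels. Gapdh, a glycolytic enzyme in all cells, had 32.2 in KO EB and 35.3 in WT EB (ratio 0.001). Replication-dependent histone genes had a median ratio of -0.52 in EB and of -0.55 in ES, so these genes were lower in KO at both stages, with 0 of 44 past 2-fold lower in EB and 3 in ES. The 0 kept genes of the Zscan4 and 2-cell-stage list left nothing to compare.

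In the signalling and other lists the counts are small and are to be read beside the 10.8% higher and 2.00% lower of all genes. Of 33 Wnt pathway genes 1 was higher, the ligand Wnt8a (7.71 in KO EB and 1.76 in WT EB, ratio 2.2), and 5 were lower, led by the Wnt inhibitor Sfrp1 (13.6 and 38.8, ratio -1.37) and the receptor Fzd1 (14.6 and 38.7, ratio -1.26). Of 14 Hedgehog genes 1 was higher and 1 lower, and the lower one was the effector Gli3 (16.7 in KO EB and 43.5 in WT EB, ratio -1.25). Of 23 FGF genes 3 were higher and 2 lower. Of 26 genes of the p53 list 1 was higher, the apoptosis gene Pmaip1 (14.1 in KO EB and 4.80 in WT EB, ratio 1.67), and 1 lower, the death receptor Fas (ratio -1.15). Of 17 trophoblast genes 1 was higher, the keratin Krt7 (ratio 1.19), and 2 lower, the factors Gata3 (-1.07) and Cdx2 (-1.01). Of 19 kept visceral endoderm genes 2 were higher, the apolipoprotein gene Apoc2 (2.61 in KO EB and 0.720 in WT EB, ratio 1.86) and the transferrin gene Trf (ratio 1.22), and 1 lower, Cited1 (ratio -1.02). In 23 glycolysis, 17 DNA methylation and 31 housekeeping genes 1 each was past 2-fold higher, Aldoc (ratio 1.22), Dnmt3l and Rab7 (ratio 1.22), and 0 lower.

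Of 32 kept Polycomb genes, 4 were past 2-fold higher in KO EB and 4 lower. Over all genes 10.8% were higher and 2.00% lower, so that the count of higher genes is near that share and the count of lower genes above it. The list had a median value of 23.5 in KO ES and 24.0 in WT ES. Of all kept genes with a mean ES value of 20 to 40, 4.74% were higher and 0.0947% lower. Phc1, a subunit of Polycomb repressive complex 1, had 8.14 in KO EB and 1.87 in WT EB, and 18.2 in KO ES and 23.5 in WT ES (ratio 2.2). Mtf2, an accessory subunit of complex 2 in ES cells, had 54.5 in KO EB and 27.7 in WT EB (ratio 1.11), Cbx7, the chromodomain subunit of complex 1 that ES cells favour, had 49.6 and 26.4 (ratio 1.04), and Jarid2, another accessory subunit of complex 2, had 131 and 70.9 (ratio 1.02). Among the lower ones were Bmi1 (10.8 in KO EB and 28.4 in WT EB, ratio -1.26), Cbx8 (7.15 and 16.6, ratio -1.07) and Yaf2 (9.90 and 22, ratio -1.01), which are members of complex 1. The core complex 2 subunits Ezh2 (21.6 and 29.3, ratio -0.30), Suz12 (28.3 and 30.7, ratio 0.02) and Eed (32.7 and 27.7, ratio 0.37) were within 2-fold.

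**Figure D4:**
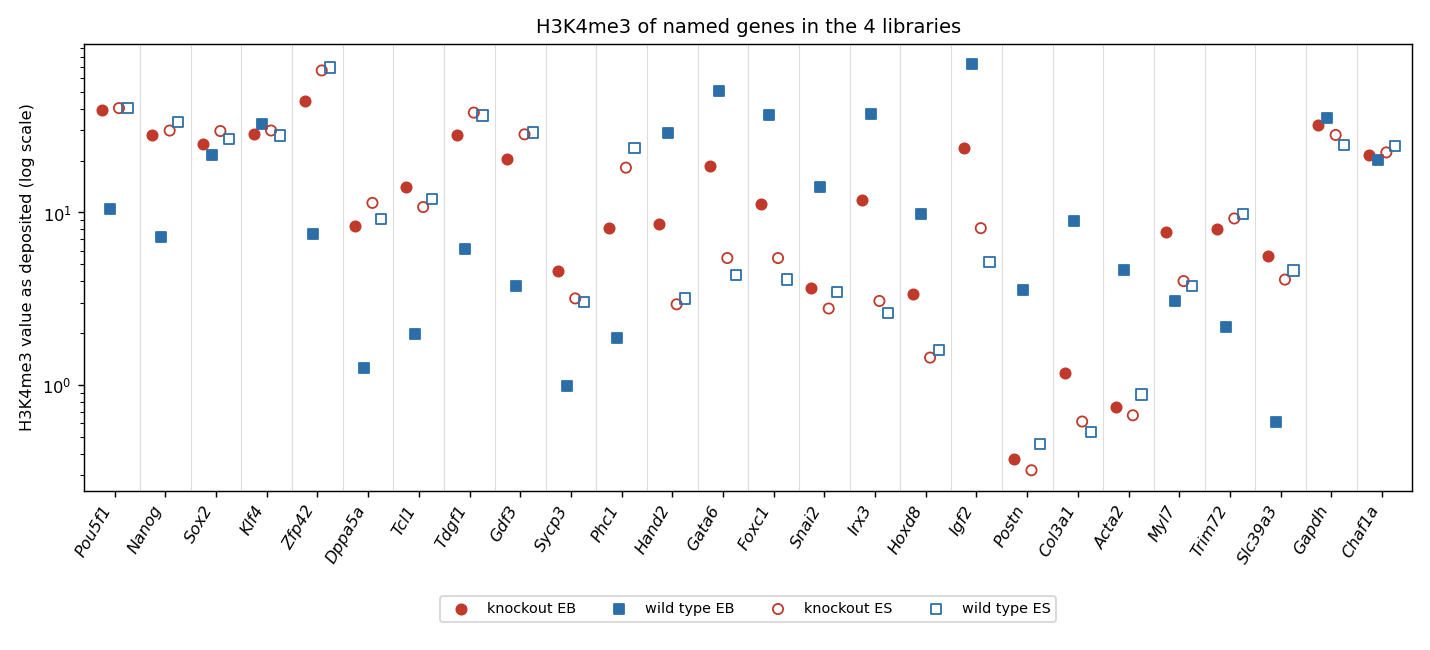
H3K4me3 values as deposited (log scale) of 26 named genes in KO EB (filled red), WT EB (filled blue), KO ES (open red) and WT ES (open blue), 1 library each. From Pou5f1 to Phc1, apart from Klf4, WT EB is the lowest point, and from Hand2 to Acta2 it is the highest; values grow with locus length, so heights are not compared between genes.

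RNA-seq of the same 4 groups gave a second readout that the H3K4me3 values did not use. Of 15424 genes tested with limma, 3085 (20.0%) had higher RNA and 3992 (25.9%) lower RNA in KO EB. The counts were 1829 and 2466 without KO EB replicate 1, and 2584 lower without WT EB replicate 2. Nothing in the labels says that replicates came from separate cultures, so it is not known whether the spread behind the p-values is technical only. Some genes differed widely between KO EB replicates 1 and 2, such as Actc1 (1.15 and 58.2 FPKM) and Tnnt2 (2.80 and 35.2 FPKM). Others were close, such as Tnni3 (3.13 and 2.81 FPKM). The source of this spread was not tested. In 12070 genes with both readouts, the median H3K4me3 ratio was 0.29 for the 2514 genes with higher RNA, -0.30 for the 3494 with lower RNA and -0.04 for the 6062 not called. Of those with higher RNA, 459 (18.3%) were past 2-fold higher in H3K4me3 and 0 lower. Of those with lower RNA, 259 (7.41%) were past 2-fold lower and 60 (1.72%) higher. Leaving out each EB library from the RNA calls in turn gave 19.4% to 24.1% for the first share and 8.47% to 10.9% for the second. Across the 12070 genes, the ratio and the RNA difference had a Pearson's r of 0.57 and a Spearman's rho of 0.54. The genes share these libraries and are not independent.

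A large share of the genes with a higher ratio had no RNA test. Of the 1709 higher genes, 929 were not tested in RNA, because they were not matched or were under the filter, and these were 24.6% of the 3777 kept genes without a test. Of the 317 lower genes 41 were not tested, 259 had lower RNA, 17 were not called and 0 had higher RNA. CpG content also divided the genes with higher RNA. Of 116 such genes with 0 to 5 CG, 83 (71.6%) were past 2-fold higher in H3K4me3, with a median ratio of 1.5. Of 1079 with over 15 CG, 72 (6.67%) were, with a median of 0.18. Their median RNA differences were 1.52 and 0.75. Among genes with lower RNA, the 124 with 0 to 5 CG were split evenly, with 14 past 2-fold higher and 14 lower and a median ratio of -0.03. Of the 1458 with over 15 CG, 0.686% were past 2-fold higher and 6.17% lower, with a median of -0.30.

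**Figure D5:**
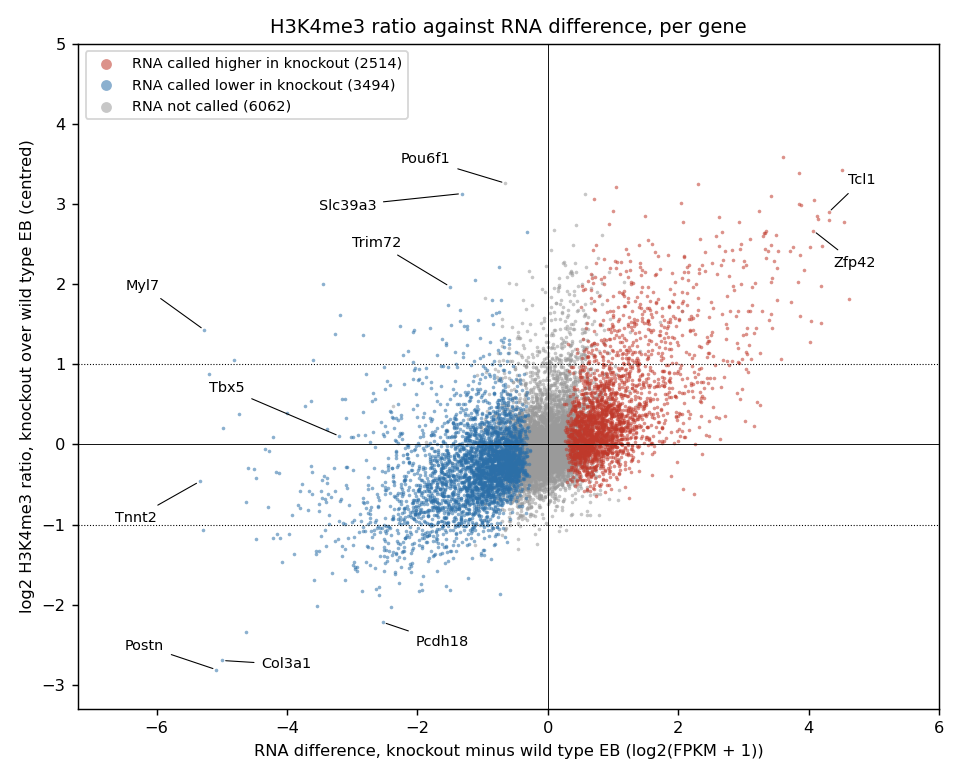
Log2 H3K4me3 ratio of KO over WT EB (vertical axis, centred) against the RNA difference of KO minus WT EB on the log2(FPKM + 1) scale (horizontal axis) for 12070 genes, coloured by limma's RNA call. Zfp42 and Tcl1 lie at the upper right and Postn, Col3a1 and Pcdh18 at the lower left, while Myl7, Slc39a3 and Trim72 lie at the upper left, with less RNA and more H3K4me3 in KO.

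Heart muscle genes had much less RNA in KO EB, while the counts of those past 2-fold in H3K4me3 were near those of all genes. Of 23 sarcomere genes 22 were called lower in KO EB RNA and 0 higher (25.9% and 20.0% of all genes tested), with a median log2 difference of -4.29. The 17 kept had a median H3K4me3 ratio of 0.33, with 3 past 2-fold higher and 1 lower, which is close to the 10.8% and 2.00% of all genes. With no filter on low values, which adds 6 genes, the median was -0.19. Myl7, the atrial myosin light chain, had 7.68 in KO EB and 3.07 in WT EB, and 4.00 in KO ES and 3.74 in WT ES (ratio 1.43, interval 1.14 to 1.78). Its RNA was 9.03 and 88.5 FPKM in KO EB, against 1473 and 907 FPKM in WT EB (-5.27 ± 0.91, adjusted p = 0.00386). The H3K4me3 of Myl7 was thus lowest in WT EB, the group with the most Myl7 RNA. Tnni3, cardiac troponin I, had 3.50 in KO EB and 1.41 in WT EB (ratio 1.38), and Myh6, the alpha myosin heavy chain, had 5.82 and 3.01 (ratio 1.06). Myl3, a ventricular light chain, was the one lower, with 0.747 in KO EB and 1.84 in WT EB (ratio -1.06). It passed the filter of a mean of at least 1 only through its WT EB value, so being kept and being lower are not independent for it.

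Among named genes with a locus and lower RNA in KO EB, the largest H3K4me3 ratios belonged to Slc39a3, Zfp740, Klhl34, Gltscr1, Pgam2 and Trim72. Slc39a3, a zinc transporter, had 5.60 in KO EB and 0.614 in WT EB, and 4.08 in KO ES and 4.62 in WT ES (ratio 3.13). Its RNA was 2.08 and 2.14 FPKM in KO EB, against 6.19 and 7.35 FPKM in WT EB (-1.32 ± 0.16, adjusted p = 0.00123). Zfp740, a zinc finger gene, had 13.7 in KO EB and 2.32 in WT EB (ratio 2.65), with RNA of 44.0 and 39.3 FPKM in KO EB, against 52.7 and 51.2 in WT EB (-0.32 ± 0.10, adjusted p = 0.0314). In both, WT EB had little H3K4me3 although it had the more RNA. Trim72, a muscle membrane repair protein, had 7.98 in KO EB and 2.16 in WT EB, near the ES values of 9.23 in KO ES and 9.76 in WT ES (ratio 1.97). Genes with higher RNA and lower H3K4me3 stayed within 2-fold, led by Gca (4.56 in KO EB and 8.0 in WT EB, ratio -0.66) and Cdkl2 (7.12 and 12.3, ratio -0.64).

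Some strongly expressed genes had almost no deposited H3K4me3. Of 820 genes with at least 100 FPKM in WT EB, 13 (1.59%) had an H3K4me3 value under 1 in WT EB. Rpl13a, a ribosomal protein gene with 4842 and 5287 FPKM in KO EB and 3637 and 4864 FPKM in WT EB, was at the floor of 0.004 in all 4 H3K4me3 libraries, as were Hmgcs1 and the adult alpha globin genes Hba-a1 and Hba-a2. The embryonic globin Hbb-bh1 had 0.027 in KO EB and 0.080 in WT EB, which is 1 step and 3 steps. Actc1, cardiac actin, had 0.0800 in KO EB and 0.454 in WT EB and was under the filter. For the genes just named the deposited values give no usable comparison. Psmc1 and Myl2, also among the 13, passed the filter and were compared. Of 20 listed globin and erythroid genes 11 were kept, with 2 past 2-fold higher, Slc4a1 (6.54 in KO EB and 2.56 in WT EB, ratio 1.45) and Gfi1b (7.42 and 3.01, ratio 1.41), and 0 lower, beside 10.8% and 2.00% over all genes, so that the count of higher genes is near that of all genes. In RNA 17 of 19 were called lower, against 25.9% of all genes tested. The 23 endothelial genes had a median of 0.18, with 2 higher and 3 lower, and in RNA 15 of 23 were called lower and 0 higher.

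H3K27me3 of the same EB was set beside H3K4me3 for the 10794 genes kept in both marks. In H3K27me3, 381 genes (3.53%) were past 2-fold higher in KO EB and 1270 (11.8%) lower, after a median of 0.14 was subtracted. The WT EB values of this mark follow other steps than those of KO EB, so the libraries may be scaled differently. With equal column sums the H3K27me3 shares were 7.12% higher and 9.47% lower. Of the 1416 genes higher in H3K4me3 with both marks, 176 (12.4%) were lower and 32 (2.26%) higher in H3K27me3, which is near the shares over all genes. Of the 308 genes lower in H3K4me3, 73 (23.7%) were lower in H3K27me3 as well and 16 (5.19%) higher. The ratios of the marks had a Spearman's rho of -0.13 across genes. Pluripotency genes had more H3K4me3 and less H3K27me3 in KO EB, with 21 of 27 past 2-fold lower in H3K27me3. Pou5f1 had an H3K27me3 value of 2.45 in KO EB and 16.6 in WT EB. All 39 Hox genes were past 2-fold lower in H3K27me3, and 8 of the 39 in H3K4me3. Of 33 neural factors 31 were past 2-fold lower in H3K27me3, and 9 in H3K4me3. The H3K27me3 ratio moved with locus length, with a median of -1.22 for loci under 5 kb and of 0.05 for loci over 100 kb, and the part of length in these counts was not tested. Hoxd8 had an H3K27me3 value of 2.85 in KO EB and 7.28 in WT EB. Pcdh18 had less H3K4me3 and more H3K27me3, with 3.95 in KO EB and 1.20 in WT EB.

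Genes with H3K27me3 in ES cells were examined within loci under 10 kb, since H3K27me3 values grow with length as well. These genes were put in 4 groups of about equal size by their mean H3K27me3 in KO ES and WT ES. In the highest group (885 genes) 19.9% were past 2-fold higher in H3K4me3 in KO EB and 7.80% lower, against 6.02% and 0.215% of 931 genes in the lowest group. The shares did not grow evenly between them. In the group next to the highest (884 genes) 24.7% were higher, the largest share of the 4, and 2.6% lower, and in the group next to the lowest (865 genes) 8.79% were higher and 0.578% lower. Within the highest group, the 245 genes with lower RNA in KO EB had a median ratio of -0.57 with 51 past 2-fold lower and 9 higher. The 65 with higher RNA had a median of 0.48, with 23 past 2-fold higher and 0 lower. Genes of the highest group also had a lower H3K4me3 value in WT ES, with a median of 4.59, against 12.8 in the lowest group.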

How the data were processed

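H3K4me3 and H3K27me3 were measured by ChIP-seq of crosslinked chromatin in 1 library per genotype and stage, and RNA by RNA-seq in 2, per the labels. The authors deposited the ChIP values as 1 table per mark with a signal per gene, and no source used here gives the promoter window or the scaling. The authors name the values RPKM on promoters, but they are not divided by locus length. The deposited H3K4me3 values behave as whole steps of 0.027, and a value counts as whole within 0.02 of a step. The H3K27me3 values named here follow these steps in KO EB but do not all do so in WT EB, such as 16.64 for Pou5f1. The authors deposited RNA as FPKM per gene, and the submitters' processing notes name STAR 2.6.0a, Cufflinks 2.2.1, Bowtie2, HTSeq and mm10, without roles. Input libraries were not analysed here.

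H3K4me3 genes were matched by symbol or RefSeq synonym to a locus of the RNA table (19041 of 20462, 93.1%). Ratios used a pseudocount of 0.1, a minimum mean of 1 over 4 libraries and a 2-fold threshold, and a median beyond 0.1 in size was subtracted. Counting intervals are exact (Clopper-Pearson, 95%). RNA was tested with limma 3.58.1 in R 4.3.3 on log2(FPKM + 1) in 8 libraries, with 4 group means, 4 residual degrees of freedom and a trended variance. A gene was tested if 2 or more libraries had 1 FPKM or more, p-values were Benjamini-Hochberg adjusted over all of them, and calls were made at 0.05. RNA differences understate the change of low genes. A count test was not used, since FPKM are not counts. Both computations were tested on simulated data.

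The genes named are fixed anchors, the 12 largest ratios in each direction, up to 4 members of each list and the 6 largest ratios against a called RNA difference in each direction. Other members of lists, and the strongly expressed genes with low H3K4me3, were chosen after their values were seen. All genes and lists were chosen with earlier results of these data known. The alternatives were other pseudocounts, filters, scalings and thresholds, a split by locus length at 10 kb, and, for RNA, leaving out each library and a replicate block.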

Additional observations from a re-analysis of the deposited data

Results flagged for a closer look

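For 4 named genes with a mean H3K4me3 of at least 1 over the 4 libraries and at least 2-fold between KO EB and WT EB, the KO over WT ratio of H3K4me3 went in opposite directions in EB and in ES, by more than 1.5-fold in ES. With 1 library per genotype and stage the difference between the stages was not tested. Igf2 had a log2 ratio of -1.48 in EB and 0.65 in ES, a difference of -2.13. Myl3 had -1.06 in EB and 0.59 in ES, a difference of -1.65, on values under 2 in all 4 libraries, and it passed the filter only through WT EB. Trf had 1.22 in EB and -0.59 in ES, a difference of 1.81. Fgf17, an FGF ligand, had 18.2 in KO EB and 8.27 in WT EB, a ratio of 1.27, and a ratio of -0.59 in ES, a difference of 1.86.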

How the results depend on the processing

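Of 102 named genes past 2-fold in EB, 102 kept their direction and 85 stayed past 2-fold in every alternative in which the gene was kept. A gene was skipped in any alternative whose filter dropped it, and Actc1 was counted though under the main filter. Every alternative reused the same KO EB and WT EB libraries, and many of these genes were named for large ratios in them. Their kept direction was thus largely fixed in advance. The shares of genes past 2-fold moved more. The EB share higher in KO, 10.8%, was 6.52% with a minimum mean of 5, 5.94% after quantile normalization and 19.09% at 1.5-fold. The EB share lower, 2.00%, was 3.24% with no filter, 3.31% without centring, 3.22% centred on ribosomal protein and housekeeping genes, 3.34% after quantile normalization, 8.61% at 1.5-fold and 4.77% with background subtraction. The ES share past 2-fold, 0.454%, was 0.265% with a pseudocount of 0.5, 1.06% with no filter, 0.177% with a minimum mean of 5, 3.74% at 1.5-fold and 2.01% with background subtraction. For the EB minus ES ratio the share higher, 11.1%, was 7.09% with a minimum mean of 5, 6.64% after quantile normalization and 20.2% at 1.5-fold. The share lower, 3.62%, was 5.97% with no filter, 13.4% at 1.5-fold and 6.58% with background subtraction. Among genes with higher RNA, 18.3% past 2-fold became 31.1% at 1.5-fold. Among genes with lower RNA, 7.41% became 11.6% with no filter, 11.2% without centring, 25.2% at 1.5-fold and 12.2% with background subtraction. The H3K27me3 share higher, 3.53%, was 2.31% with a pseudocount of 0.5 and 7.12% with equal column sums. Beyond the construction of each setting, the cause of these moves was not tested. Without each RNA library in turn, limma called 1829 to 3046 genes higher and 2466 to 3932 lower. With a replicate block it called 3157 and 4054. Same-numbered RNA libraries deviated together with correlations of 0.07 to 0.31, and with 2 pairs per comparison the numbers were not taken to pair the samples. Background subtraction and the RNA calls without single libraries were chosen after seeing the data. With 1 library a side, genes with few steps carry wide counting intervals, and nothing here covers variation between cultures.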

Other observations

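Genes on chromosome 1 had lower KO over WT ratios of H3K4me3, by their median, than those of other chromosomes at both stages. Over the 899 kept genes the median H3K4me3 log2 ratio was -0.20 in EB and -0.14 in ES, while the medians of the other chromosomes lay between -0.15 and 0.14 in EB and between -0.05 and 0.07 in ES. The H3K27me3 medians of chromosome 1 were -0.11 in EB, where the other chromosomes lay between -0.10 and 0.06, and -0.18 in ES, where they lay between -0.25 and 0.10. The RNA medians were -0.12 in EB, where the others lay between -0.11 and -0.01, and 0.004 in ES, where they lay between 0.0007 and 0.04. No test was run on this pattern.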
